A study of Rattus norvegicus with 6 samples.

Results

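The 33 genes described here encode the enzymes and transporters of glycolysis and lactate handling (24 genes), targets of the hypoxia-inducible factors (HIFs) outside glycolysis (6 genes), and the factors Hif1a and Epas1 with their regulator Vhl (3 genes). They were chosen by name from a table of 33589 rows, and all 33 were in it, none under more than 1 row. All 33 also passed the filter on low values, a mean of at least 1 FPKM (a fragment count divided by gene length and library size), as did 12713 genes in all. The samples were polyA RNA from mesenchymal stem cells (MSCs) of rat bone marrow, kept for 48 h in a hydrogel named SA in the labels, either soft (2 kPa, 3 libraries) or stiff (18 kPa, 3 libraries). All 6 cultures shared low-glucose medium with serum, and cells were taken out of the gel before RNA was prepared. Neither the rat strain and age nor the number of animals is given in the sources used here, nor is the oxygen level of the cultures. Whether a replicate was a separate culture is also unstated, and the design text speaks of quadruplicates while 3 libraries per group were analysed here. The p-values then reflect no more than the spread between these particular libraries, which may be technical.

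Glycolysis splits glucose into pyruvate, which cells either pass to mitochondria or reduce to lactate and export. HIF1A and EPAS1 are transcription factors that prolyl hydroxylases (EGLN proteins) mark for destruction by VHL when oxygen is plentiful. In low oxygen they persist and raise most glycolytic genes, together with genes for pH control, mitophagy and vessel growth. MSCs in the marrow and in culture are known for a high glycolytic rate.

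Reads recovered from the FPKM ranged from 14966354 to 16711527 per library. Soft replicate 1 stood apart from the rest on the first principal component (-20.9, against -8.22 and -7.98 in the other soft libraries and 10.3 to 14.2 in the stiff ones). The 8 listed MSC markers were all above the filter, with summed levels of 5371 to 6192 FPKM in soft and 6449 to 6999 FPKM in the stiff gel. Among them Vim, the intermediate filament gene, rose (log2 fold change 0.36, limma adjusted p = 0.0246), and the most abundant, Col1a1, was at 3061 ± 373 and 3579 ± 314 FPKM (adjusted p = 0.334). Of 14 leukocyte markers 13 were in the table, none at 0, with sums of 433 to 439 FPKM in soft and 381 to 411 FPKM in the stiff gel. Among them Cd68 (log2 fold change -0.53) and Cd53 (-0.56) fell and Adgre1 rose (0.30), while Ptprc was at 2.15 to 3.18 FPKM, and the part of these cells in the results was not tested. Endothelial markers summed to at most 0.738 FPKM, with Cldn5 at 0, and erythroid markers to at most 0.768 FPKM, with Hba-a1 and Hbb at 0 in every library.

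A short core that HIFs bind in DNA is ACGTG, the only form searched for here. To show where it lies, 4 promoters are printed from 150 bases before to 30 after the RefSeq start in build GRCr8: Ldha with a pair of cores, Ankrd37 with cores close to the start, and Car9 and Pfkfb3, whose levels lay on opposite sides of 0 in the comparison of gels. Capitals mark ACGTG or its reverse complement CACGT, and in CACGTG, which is also the E-box hexamer, both overlap.
Ldha (chr1:106507942-106508121, plus strand): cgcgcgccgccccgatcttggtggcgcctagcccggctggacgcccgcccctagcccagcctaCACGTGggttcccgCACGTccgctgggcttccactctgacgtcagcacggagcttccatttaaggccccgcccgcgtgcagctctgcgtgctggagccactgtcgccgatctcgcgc
Ankrd37 (chr16:53001357-53001536, plus strand): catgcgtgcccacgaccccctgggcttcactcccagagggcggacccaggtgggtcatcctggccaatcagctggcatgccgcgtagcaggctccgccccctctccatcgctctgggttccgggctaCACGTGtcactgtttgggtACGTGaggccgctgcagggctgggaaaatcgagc
Car9 (chr5:62558874-62559053, plus strand): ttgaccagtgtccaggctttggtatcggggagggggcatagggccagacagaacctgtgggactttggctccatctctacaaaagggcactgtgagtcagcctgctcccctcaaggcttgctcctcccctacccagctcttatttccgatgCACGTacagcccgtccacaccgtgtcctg
Pfkfb3 (chr17:71944783-71944962, plus strand): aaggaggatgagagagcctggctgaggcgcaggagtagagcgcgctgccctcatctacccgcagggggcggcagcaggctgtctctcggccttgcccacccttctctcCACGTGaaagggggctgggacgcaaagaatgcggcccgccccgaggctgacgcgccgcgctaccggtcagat
Of the 33 genes, 31 matched a symbol in the RefSeq promoter table. Searching 300 bases (250 before to 50 after the start) on both strands, 20 of their 35 windows held ACGTG (57.1%), against 19.3% of all 33469 windows and 25.2% of the windows of genes over the level filter. Several HIF targets were chosen as members for their known regulation, so this share is a description, and a match is not a shown binding site.

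Stiff was compared with soft gel to ask how the stiffness around the cells changed these transcripts. Ndrg1, a hypoxia- and stress-induced gene, was the only one of the 33 called lower at a limma adjusted p under 0.05, and none was called higher. Most members differed little: log2 fold changes ran from -0.26 to 1.12 with a median of 0.04, and the median absolute change was 0.09, against 0.10 over all tested genes. Of the members 20 lay above 0, but 16 did with libraries scaled to equal FPKM sums and 16 with quantile normalization, with medians of -0.0061 and -0.00032. Over all 12713 tested genes 6403 lay above 0 as deposited, 4913 at equal sums (median -0.04) and 6293 by quantiles. With limma and Benjamini-Hochberg adjustment at 0.05, 1.43% of all tested genes were called (182, of which 128 were higher and 54 lower in stiff gel, or 88 and 68 at equal sums and 103 and 68 by quantiles), and 0.425% were called lower. At an unadjusted p under 0.05 stood 8 of the 33 members, 5 higher and 3 lower, against 15.4% of all tested genes (8.46% higher and 6.95% lower). Under either other scaling the members split into 2 higher and 4 lower, for which no share over all tested genes was computed. Groups did not overlap in 11 members, against 22.6% of all tested genes. Here and below, overlap was judged only on FPKM as deposited. The FPKM sums were 452787 to 457306 in soft and 467372 to 478304 in stiff libraries, so non-overlap can depend on the scaling. Without soft replicate 1, 25 members lay above 0, with a median of 0.07, and none was called.

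**Figure D1:**
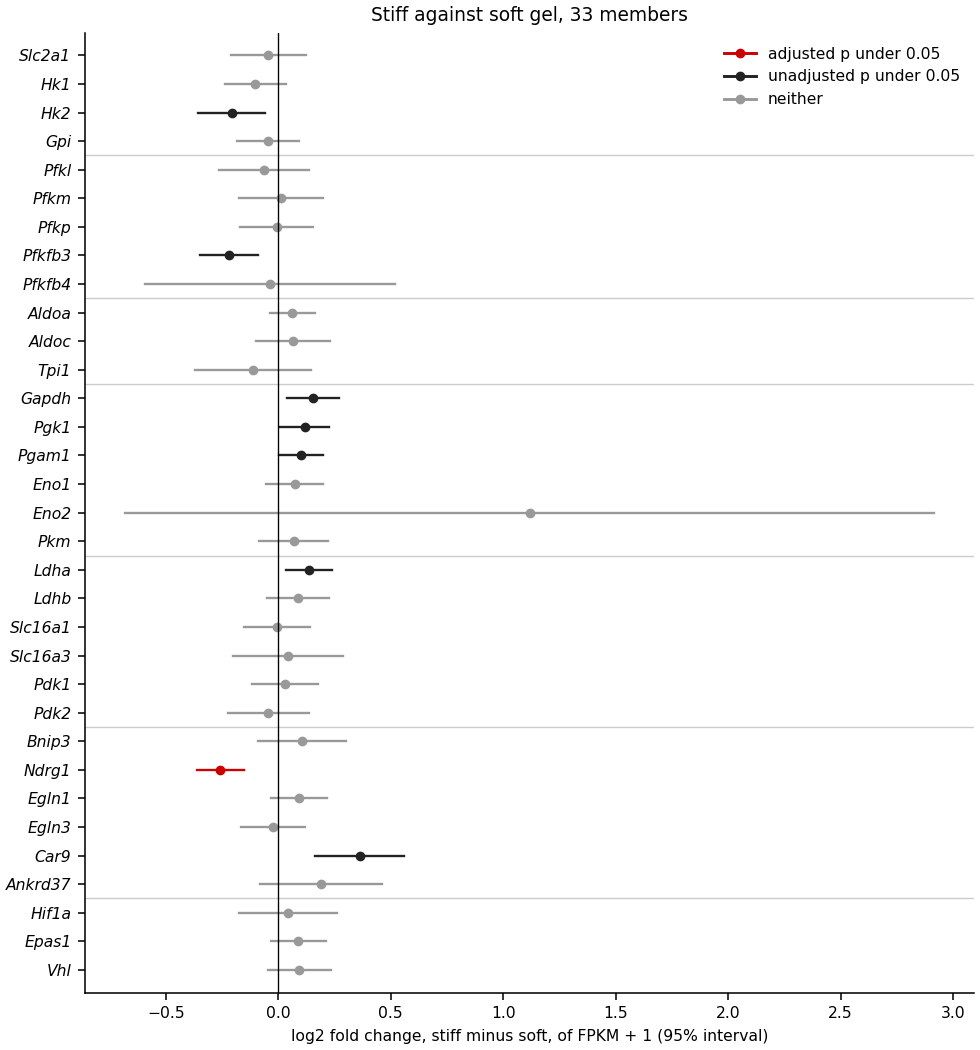
Log2 fold change of stiff against soft gel, on the log2(FPKM + 1) scale, with its 95% interval from limma for each of the 33 genes, ordered by role. Red marks the single gene with an adjusted p under 0.05 (Ndrg1), black the other members with an unadjusted p under 0.05, and most intervals cross 0.

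Among the 6 HIF targets outside glycolysis, Ndrg1 was at 97.9, 98.1 and 101 FPKM in soft replicates 1 to 3 and at 84.1, 82.4 and 81.2 FPKM in stiff ones. Every stiff library was below every soft one. It fell from 98.9 ± 1.63 to 82.6 ± 1.45 FPKM (SD, n = 3 per group), 0.835 times the soft level (log2 fold change -0.26, SE 0.045, 95% interval -0.36 to -0.15, limma adjusted p = 0.0472). The call was marginal: the adjusted p was between 0.0602 and 0.210 in the 6 fits that left out 1 library each, while the log2 fold change stayed between -0.27 and -0.24. In bulk RNA, fewer cells of a type and less RNA per cell cannot be told apart. The gene (ENSRNOG00000007393) lies on chromosome 7 from 107734323 to 107775714, as listed in the table, with no build named there.

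Car9, a membrane carbonic anhydrase that helps control pH in hypoxic cells, was at 5.42, 5.94 and 6.22 FPKM in soft and 8.32, 7.13 and 8.01 FPKM in the stiff gel. The groups did not overlap, and the 188 to 277 reads per library made it one of the less deeply sampled members. Its mean was 5.86 ± 0.404 and 7.82 ± 0.618 FPKM, 1.33 times the soft level (log2 fold change 0.36, 95% interval 0.16 to 0.56), and it missed the limma threshold (adjusted p = 0.107).

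Bnip3, which marks mitochondria for mitophagy, was the most abundant of these 6 targets, at 123, 152 and 149 FPKM in soft and 147, 156 and 152 FPKM in the stiff gel. Soft replicate 1 was the lowest and the groups overlapped (log2 fold change 0.11, 95% interval -0.09 to 0.30). The change was 0.01 without soft replicate 1. The oxygen sensors did not pass the test either. Egln1, the main HIF prolyl hydroxylase, was at 131 ± 6.38 and 139.5 ± 3.22 FPKM, and its inducible relative Egln3 at 32.1 ± 1.58 and 31.6 ± 1.26 FPKM. Ankrd37, a small HIF1A target, was at 4.18 ± 0.570 and 4.91 ± 0.569 FPKM (0.19, interval -0.08 to 0.46).

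**Figure D2:**
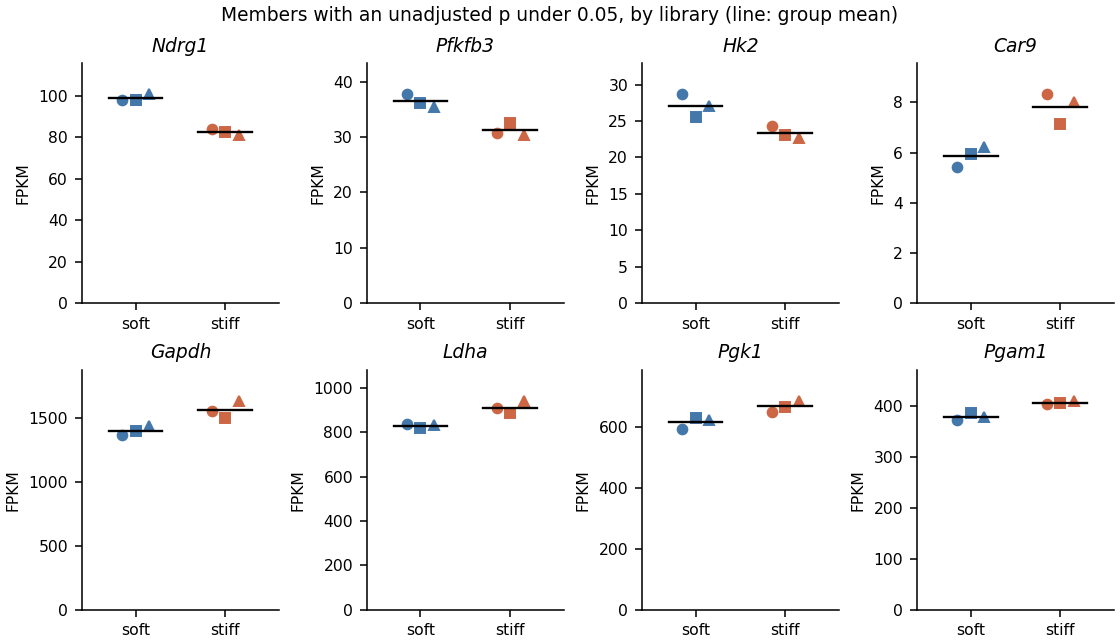
FPKM in each library for the 8 members with an unadjusted p under 0.05, on axes that start at 0, with soft libraries in blue, stiff in orange, circles, squares and triangles for replicates 1, 2 and 3, and lines at the group means. In each panel the groups are apart, by small distances against their level: the stiff mean is 0.835 times the soft mean for Ndrg1 and 1.33 times for Car9.

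None of the 3 genes of the HIF factors and VHL passed the test. Hif1a, the oxygen-labile subunit, was at 176, 219.6 and 210.5 FPKM in soft and 199, 225 and 198 FPKM in the stiff gel. Soft replicate 1 was again the lowest, and the log2 fold change was 0.04 (95% interval -0.18 to 0.26, limma adjusted p = 0.877), with the sign turned at equal FPKM sums (-0.0061), after quantile normalization (-0.00032) and without soft replicate 1 (-0.05). HIF proteins are controlled mainly by degradation, which RNA does not measure. Epas1, the HIF-2 subunit, was at 40.3 ± 0.682 and 43.0 ± 1.55 FPKM. Vhl, the ubiquitin ligase subunit that recognises hydroxylated HIF, was at 20.9 ± 1.01 and 22.4 ± 0.563 FPKM. In both genes every stiff library was above every soft one in FPKM as deposited, a separation not checked at equal FPKM sums. Neither gene passed the limma test (adjusted p = 0.469 and 0.501), and the intervals were -0.03 to 0.21 and -0.05 to 0.23.

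At the entry to glycolysis none of the 4 genes of glucose uptake and phosphorylation passed the test. Slc2a1, the widely expressed glucose transporter gene, was at 103 ± 7.75 and 99.5 ± 5.53 FPKM (log2 fold change -0.04, interval -0.21 to 0.12), with the sign turned without soft replicate 1 (0.01). Hk2, the regulated hexokinase, was at 28.7, 25.5 and 27.1 FPKM in soft and 24.3, 23.1 and 22.6 FPKM in the stiff gel. Its stiff libraries all lay below the soft ones, at 0.861 times the soft mean (-0.21, interval -0.36 to -0.06, adjusted p = 0.195). The housekeeping hexokinase Hk1 was at 76.6 ± 3.87 and 71.3 ± 2.55 FPKM and overlapped. Gpi, which interconverts glucose and fructose phosphates and was the most abundant of the 4, was at 474, 428 and 432 FPKM in soft and 422, 419 and 452 FPKM in the stiff gel, and its groups overlapped.

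Phosphofructokinase, the committed step, has 3 subunit genes, and the PFKFB enzymes set the level of its activator fructose 2,6-bisphosphate. Pfkfb3, the inducible PFKFB isozyme with the strongest kinase activity, was at 37.8, 36.2 and 35.6 FPKM in soft and 30.8, 32.5 and 30.4 FPKM in the stiff gel. The groups did not overlap, and the stiff mean was 0.856 times the soft one (log2 fold change -0.22, interval -0.35 to -0.09), which missed the threshold (limma adjusted p = 0.127). Pfkl, the liver-type subunit, was at 174, 148 and 148 FPKM in soft and 157, 136 and 156 FPKM in the stiff gel. It overlapped between the groups, as did the muscle-type Pfkm (19.3 ± 1.70 and 19.4 ± 1.21 FPKM) and the platelet-type Pfkp (22.9 ± 1.69 and 22.8 ± 0.815 FPKM). Pfkfb4 was close to the filter at 0.514 to 1.72 FPKM, from 17 to 59 reads per library, so that its interval of -0.59 to 0.52 allowed a wide range.

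Aldolase A, the enzyme that cleaves fructose bisphosphate, was encoded by one of the most abundant members. Aldoa was at 949, 924 and 941 FPKM in soft and 964, 968 and 1008 FPKM in the stiff gel. The stiff libraries were above the soft ones by little as deposited (log2 fold change 0.06, interval -0.04 to 0.16). The sign turned after quantile normalization (-0.01). Aldoc, the brain-type aldolase, was at 31.7 ± 2.22 and 33.2 ± 1.65 FPKM.

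The 6 genes from Gapdh to Pkm, which make ATP and pyruvate, lay above 0 as deposited and at equal FPKM sums, but 4 of 6 did after quantile normalization, and none passed the test. Gapdh, the most abundant member (rank 25 of the tested genes), was at 1372, 1404 and 1438 FPKM in soft and 1559.7, 1500.3 and 1636 FPKM in the stiff gel. All stiff libraries were above the soft ones, with a log2 fold change of 0.16 (interval 0.04 to 0.27, adjusted p = 0.208). Pgk1, the first ATP-forming kinase of the pathway, was at 592, 629.8 and 622 FPKM in soft and 650.1, 667 and 684 FPKM in the stiff gel (0.12, interval 0.0079 to 0.23, adjusted p = 0.297). The groups were apart here too, yet after quantile normalization the fold change was -0.0066. Pgam1, a mutase, was at 372, 386 and 379 FPKM in soft and 405, 405 and 409.6 FPKM in the stiff gel (0.10, interval 0.0030 to 0.20, adjusted p = 0.310). Eno1, the common enolase, was at 991 ± 53.7 and 1043 ± 29.4 FPKM, and Pkm, the pyruvate kinase of most tissues, at 821 ± 60.2 and 861 ± 38.7 FPKM, and in both the groups overlapped.

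Ldha, which reduces pyruvate to lactate, was at 837, 818 and 832 FPKM in soft and 910.5, 886 and 942 FPKM in the stiff gel. All stiff libraries were above the soft ones at 1.10 times their mean (log2 fold change 0.14, interval 0.03 to 0.24, adjusted p = 0.209), and the change was 0.03 after quantile normalization. Ldhb, the subunit that favours the reverse reaction, was at 24.5 ± 0.270 and 26.2 ± 1.38 FPKM. The lactate exporter gene Slc16a3 was at 119.9 to 150.0 FPKM in soft and 121 to 146 FPKM in the stiff gel, and Slc16a1, which carries lactate and pyruvate both ways, at 87.1 to 99.7 and 92.4 to 96.6 FPKM. Pdk1 and Pdk2, kinases that shut off pyruvate dehydrogenase, were at 30.3 ± 1.74 and 30.9 ± 1.07 FPKM and at 15.3 ± 1.37 and 14.8 ± 0.390 FPKM. All 4 overlapped between the gels.

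**Figure D3:**
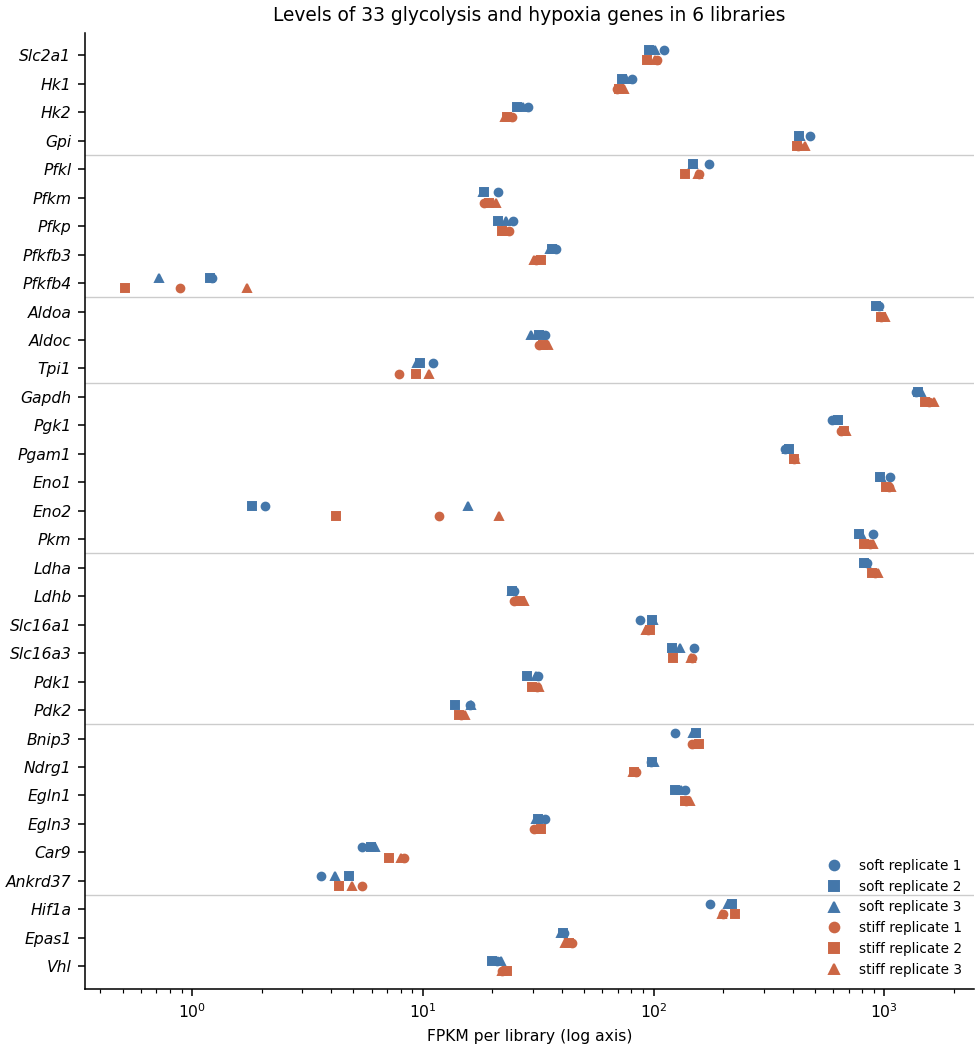
FPKM of the 33 genes in the 6 libraries on a log axis, in order of role, with soft libraries in blue and stiff in orange. Levels span from 0.514 FPKM for Pfkfb4 to 1636 FPKM for Gapdh, and for nearly all genes the spread between libraries is small beside the differences between genes, Eno2 and Pfkfb4 being the exceptions.

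Most genes of the upper part of the pathway lay below 0, and most of the lower part above 0. Of the 9 genes from Slc2a1 to Pfkfb4, 1 lay above 0 as deposited, 0 with equal sums and 2 with quantile normalization, with medians of -0.05, -0.09 and -0.13. Of the 7 genes from Gapdh to Ldha (lower glycolysis and Ldha), 7, 7 and 5 lay above 0, with medians of 0.12, 0.07 and 0.03. Left out of both sets were the aldolase and triose genes between them (Aldoa 0.06, Aldoc 0.07 and Tpi1 -0.11) and Ldhb (0.09). In the upper set Slc2a1, Gpi, Pfkl, Pfkm, Pfkp and Pfkfb4 changed sign in fits that left out 1 library. The split was drawn after the values were seen, and the difference was not tested. The 2 sets also differed in level and length, with median levels of 33.9 and 841 FPKM and median gene lengths of 2682 and 1742 bases, and the part of these in the difference was not tested.

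The 33 genes made up 1.70% to 1.80% of all FPKM in every library. Within enzyme families, where FPKM are per length and can be set side by side, the same isozyme dominated in both gels. Ldha held 97.1% to 97.4% of lactate dehydrogenase FPKM over the 6 libraries, Aldoa 96.6% to 97.0% of the aldolase pair, Pfkfb3 94.6% to 98.4% of the PFKFB pair and Eno1 98.0% to 99.8% of the enolase pair. Hk1 held 73.7% to 76.6% of the hexokinase pair and Pfkl 76.7% to 79.1% of phosphofructokinase. Slc16a3 held 55.0% to 63.3% of the lactate transporter pair. Pdk1 held 66.5% ± 0.796 in soft and 67.7% ± 0.268 in stiff gel of its pair with Pdk2. Only this family of the 8 had shares that did not overlap between the groups. No background rate was computed for shares, and the 22.6% of all tested genes with levels apart is an unlike measure. The gap was narrow, from 67.33% in soft replicate 2 to 67.37% in stiff replicate 2. With 3 against 3 libraries an exact two-sided permutation test cannot go below 0.1, so the shares were not tested.

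Some members have annotated near-copies that can share their reads. Tpi1, triosephosphate isomerase, was at 7.90 to 11.0 FPKM, far below its neighbours in the pathway. LOC100911515, described in the table as like triosephosphate isomerase, was at 41.9 to 88.6 FPKM on chromosome 9 from 20213588 to 20217176. Their sum was 69.8 ± 12.0 FPKM in soft and 69.4 ± 23.9 FPKM in the stiff gel (log2 fold change -0.05). Eno2, the neuronal enolase, had the largest fold change of the members but the least certain. It was at 2.07, 1.83 and 15.6 FPKM in soft and 11.7, 4.20 and 21.3 FPKM in the stiff gel (1.12, interval -0.68 to 2.91, adjusted p = 0.538). The libraries differed several-fold within each group. Leaving out 1 library gave values from 0.63 (without stiff replicate 3) to 1.95 (without soft replicate 3), and array weights gave 0.24. Its near-copy LOC100911625, also on chromosome 9, from 20251521 to 20260505, was at 1.72 to 11.3 FPKM, and together they were at 10.2 ± 7.25 and 19.3 ± 7.81 FPKM (1.00, adjusted p = 0.379). For Gapdh, Eno1, Ldha and Pkm, adding the near-copies left the log2 fold changes at 0.15, 0.07, 0.13 and 0.07, and no call changed. The sources used here do not state how reads mapping to several places were treated, and levels of these 6 genes are uncertain.

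**Figure D4:**
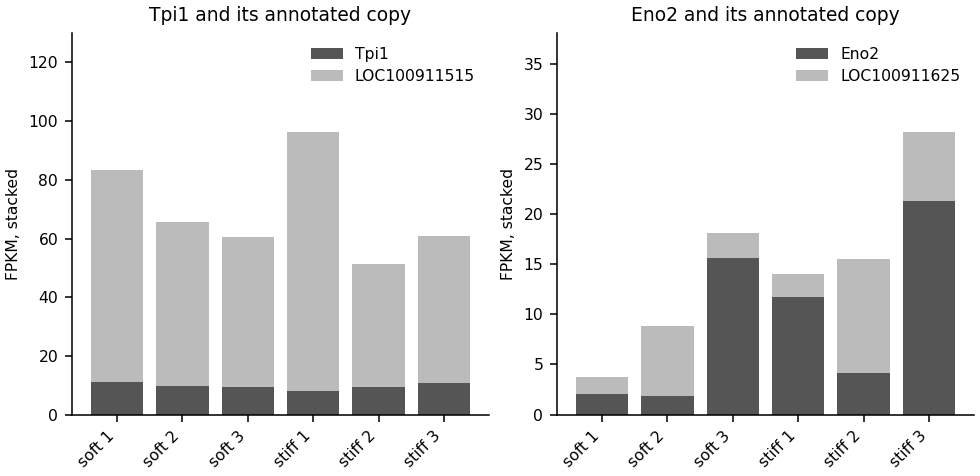
FPKM per library of Tpi1 and Eno2 (dark) stacked with their annotated near-copies LOC100911515 and LOC100911625 (light). The near-copy holds most of the Tpi1 signal in every library, at 41.9 to 88.6 FPKM, and the division between Eno2 and its near-copy varies from library to library in both gels.

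Other genes of the pathway, from lists outside the 33, included more calls. Of 24 further HIF targets, 3 rose and 1 fell, against 1.01% of all tested genes called higher and 0.425% called lower. The list was drawn up with earlier results of these data known, so these counts are a description and not a test of HIF targets. Their median log2 fold change was 0.04, and -0.01 under either other scaling. Stc2, a secreted glycoprotein of the stress response, rose from 17.2 ± 0.970 to 22.7 ± 0.588 FPKM (adjusted p = 0.0391), and Adm, which encodes the vasodilator adrenomedullin, from 32.1 ± 0.517 to 41.0 ± 1.47 FPKM (adjusted p = 0.0317). Vegfa, the vessel growth factor, moved the other way, from 347 ± 13.6 to 277 ± 9.01 FPKM (adjusted p = 0.0325). In the fits without 1 library, Adm and Vegfa passed only without soft replicate 1 and Stc2 in none (adjusted p up to 0.151, 0.133 and 0.159). Of the 17 alternative fits, Adm and Vegfa were each called in 10 and Stc2 in 6. Stc2 was not called at equal FPKM sums, with the filter at 0.1 FPKM or none, without the variance trend or with the replicate number as a block, nor was Adm without the trend or with the block, nor Vegfa without the filter or the trend.

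Of 12 tested partners and regulators of HIF none passed (2 at an unadjusted p under 0.05), with Rbx1, a subunit of the VHL ligase, the most abundant at 123 ± 8.18 and 124 ± 19.4 FPKM. Among 12 tested further enzymes of glucose metabolism, Pck2, the mitochondrial PEP carboxykinase, rose from 16.2 ± 0.906 to 23.0 ± 0.739 FPKM (log2 fold change 0.48, limma adjusted p = 0.0198). In fits without 1 library it passed only without soft replicate 1, with an adjusted p up to 0.0993. None of 6 pentose phosphate genes was called (0 at an unadjusted p under 0.05), the most abundant being Tkt, transketolase, at 233 ± 10.4 and 220.1 ± 6.39 FPKM. None of 20 genes of pyruvate dehydrogenase and the TCA cycle was called either (3 at an unadjusted p under 0.05), the most abundant being the mitochondrial malate dehydrogenase gene Mdh2 at 98.4 ± 3.23 and 109 ± 3.37 FPKM.

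**Figure D5:**
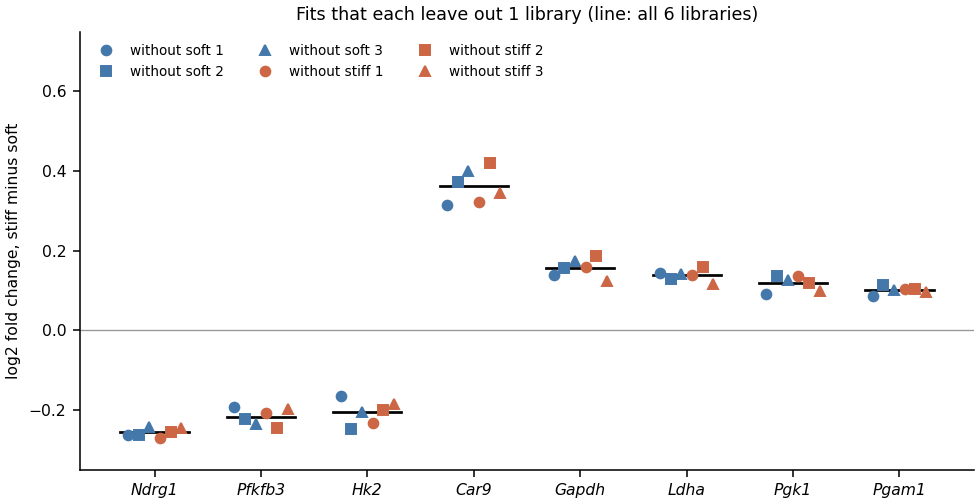
Log2 fold changes (stiff minus soft) of the 8 members with an unadjusted p under 0.05 when each library was left out in turn (symbols, by library) beside the value from all 6 libraries (lines). No gene crosses 0, but none could, because in all 8 genes every stiff library lay on the same side of every soft one. The signs are therefore no test of stability, and only the ranges are informative. Ndrg1 stays between -0.27 and -0.24, and Car9 ranges from 0.32 to 0.42.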

How the data were processed

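The authors deposited 1 table of FPKM per gene for 3 soft and 3 stiff libraries. Per the submitters' processing notes, Bowtie 0.12.9, Cufflinks 2.1.1 and HTSeq were used, with the mouse builds mm10 and GRCm38 named, whereas the table carries rat Ensembl identifiers and no build. The sources used here do not state the strand setting. Multiplied by gene length, every value was a whole number of steps in its library (100% of values within 1e-04), so reads could be recovered; 3 reads on a gene of 1 kb equal 0.179 to 0.201 FPKM.

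The gels were compared on log2(FPKM + 1) with limma 3.58.1 (R 4.3.3), fitting the group alone with a variance trend. Tests were two-sided, with p-values adjusted by Benjamini-Hochberg (threshold 0.05) over the 12713 genes averaging 1 FPKM or more. This scale understates fold changes of low genes; ratios are of mean FPKM. Alternatives changed the pseudocount, filter, scaling, variance model, library weights and block, and left out each library; voom on recovered reads and the addition of near-copies were chosen after seeing the data. Members and lists were chosen with earlier results of these data known. Values per library are given for members with an unadjusted p under 0.05 and the most abundant of each role, and of the other lists every called gene or else the most abundant one. No 2 libraries of a group agreed within sampling noise (chi-square per degree of freedom 3.57 or more). A called gene of the further HIF targets is counted but not reported here.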

Additional observations from a re-analysis of the deposited data

How the results depend on the processing

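Of the 33 members, 19 kept the sign of their log2 fold change in all alternatives that could be run, and no value that changed sign was called. Over all tested genes 182 were called; the count was 119 (85 higher, 34 lower) with a filter at 0.1 FPKM, 92 (71 and 21) with no filter, 112 (85 and 27) without the variance trend, 685 (430 and 255) with array weights, 317 (127 lower) with voom, and 105 (78 and 27) with the replicate number as a block. In these settings 0 members were called lower, except 2 with array weights (Pfkfb3 and Ndrg1, with 1 higher, Car9) and 1 with voom. Leaving out 1 library gave between 26 and 159 called genes (19 to 116 higher, 7 to 43 lower) and between 0 and 0 members lower. Ndrg1 had an adjusted p of 0.111 without the trend, 0.0836 with the block, 0.0538 with the filter at 0.1 FPKM and 0.0509 with none; the cause was not tested. Same-numbered libraries deviated from their group means with correlations of 0.055, 0.12 and -0.08, and soft replicate 1 correlated best with stiff replicate 3 (0.14). Correlations this weak, from means of 3 libraries, cannot decide whether the numbers pair the libraries.

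Signs turned at equal FPKM sums for Pfkm (-0.0345), Slc16a3 (-0.00725), Pdk1 (-0.0182) and Hif1a (-0.00615); after quantile normalization for Pfkfb4 (0.0053), Aldoa (-0.0114), Pgk1 (-0.00664), Pkm (-0.0443), Slc16a3 (-0.0161) and Hif1a (-0.000325); with array weights for Pfkl (0.0213), Pfkp (0.0191), Pfkfb4 (0.122) and Hif1a (-0.0368); and with voom for Pfkm (-0.00194). Without 1 library the ranges that crossed 0 were Slc2a1 -0.0948 to 0.0122, Gpi -0.0807 to 0.00127, Pfkl -0.102 to 0.0131, Pfkp -0.0581 to 0.0441, Pfkfb4 -0.266 to 0.157, Egln3 -0.0483 to 0.0162, Hif1a -0.0526 to 0.106, Pfkm -0.0319 to 0.0808, Slc16a1 -0.0657 to 0.0309, Slc16a3 -0.0321 to 0.132 and Pdk1 -0.0172 to 0.0578. Leaving out 1 library moved the stiff minus soft difference in each isozyme share by less than the larger SD of its groups. With groups of this size that holds for any values, so it does not show that the shares were stable. The planned count models (edgeR and DESeq2) were not run, since the deposited unit is FPKM. Depth limits Pfkfb4 and Ankrd37, at 17 and 53 reads in their lowest library. Eno2 had 67 to 800 reads per library, and its levels differed several-fold within each group.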

Other observations

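Among the listed genes outside the 33, 4 that missed the limma threshold were chosen after their values were seen. Hk3, a hexokinase known from leukocytes, was at 6.53 ± 0.404 FPKM in soft and 4.46 ± 0.425 FPKM in the stiff gel (limma adjusted p = 0.0615). Leukocyte marker sums were also lower in the stiff gel, with 4 of 11 tested markers above 0, and a link to Hk3 was not tested. Plod2, a collagen lysyl hydroxylase, was at 126 ± 7.64 and 160.3 ± 7.60 FPKM (adjusted p = 0.0530), Cited2, a HIF-induced inhibitor of HIF, at 76.2 ± 4.02 and 95.4 ± 3.81 FPKM (adjusted p = 0.0530), and Lox, a collagen crosslinking oxidase, at 478 ± 41.1 and 609 ± 40.4 FPKM (adjusted p = 0.0930).

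Mif, a cytokine gene of the HIF target list, was at 156 FPKM in soft replicate 2 and at 9.89 to 23.7 FPKM in the other 5 libraries. Slc2a3, a glucose transporter, was at 1.05, 6.55 and 11.6 FPKM in soft and 8.15, 8.14 and 0.564 FPKM in the stiff gel. Of the 33 members, soft replicate 1 was the highest library in 11 and the lowest in 8, against 25.4% and 25.9% of all tested genes, soft replicate 2 the highest in 0 and the lowest in 12 (14.8% and 15.3% of all), and stiff replicate 3 the highest in 13 and the lowest in 3 (17.8% and 17.6% of all).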
